A study of Mus musculus with 45 samples.

Results

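The cell cycle and DNA replication genes of the mouse liver were taken as 37 genes listed by their function, of the 24946 genes in a table of transcript levels from 45 liver libraries. They comprise the D and E cyclins that move a cell through G1, the regulators p27 (Cdkn1b) and E2f1, the proteins that license and open replication origins, the proteins of the replication fork, the enzymes that supply deoxynucleotides, and the proteins that drive mitosis. Membership follows the gene symbol. Of the 37, 25 had a mean of at least 0.5 TPM (a relative level per transcript length, scaled to the same total in every library) over all libraries and were tested, and 12 were too low to test.

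The libraries came from whole liver of wild-type mice in a study of alcohol-associated liver injury and its resolution. Ethanol-labelled mice at the peak stage had been given the Lieber-DeCarli ethanol liquid diet for 6 weeks. For early and late resolution, that diet was followed by the Lieber-DeCarli control diet for 3 days or for 2 weeks. Control-labelled livers of each stage came from mice on the control diet. Each stage held livers labelled female and male, which gave 12 groups of stage, diet label and sex label. Of these, 9 had 4 libraries and 3 had 3 libraries: the ethanol female group of early resolution and both ethanol groups of late resolution. Ages, and whether each library came from its own animal, are not in the labels, so each p-value reflects library-to-library spread, which may be technical.

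The X and Y transcripts went against the sex labels. In all 21 ethanol-labelled libraries Xist, made from the inactive X of females, was at 13.7 to 51.8 TPM, while the Y gene Eif2s3y was at 0.0386 TPM or less. In 23 of 24 control-labelled libraries Eif2s3y was at 7.83 to 12.7 TPM and Xist at 0.349 TPM or less. The exception was late control female 1, with Xist at 39.5 TPM and Eif2s3y at 0. Sex label and transcripts disagreed in 22 of 45 libraries. In these data the diet label and the X or Y pattern therefore cannot be told apart. Nor can exchanged sex labels, exchanged diet labels and exchanged table columns, so every ethanol minus control and male minus female value below is a difference between labels, and a library is named by its label. Albumin ran from 49422 to 170591 TPM, and no hepatocyte marker was at 0 in any library. Table columns summed to 999999 to 1000001, which is the TPM scale, so sequencing depth is unknown, and 15093 to 16402 genes per library were above 0.

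An adult hepatocyte rests in G0 and re-enters the cycle after injury or loss of tissue. Cyclin D1 with its kinases phosphorylates RB in G1, which releases E2F factors to switch on the genes for origin licensing, nucleotide supply and the fork. The mitotic genes follow, and their promoters often carry CCAAT boxes and a cell cycle homology region (CHR), while many S-phase promoters carry an E2F site.

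As examples, the 250 bases before the RefSeq start are printed for the licensing helicase subunits Mcm3 and Mcm6, the mitotic kinase Cdk1 and the spindle checkpoint kinase Bub1b. All were called higher in ethanol-labelled livers at early resolution, and all lost that call without early ethanol female 3. These 4 were chosen after their values were seen, and a part of these sequences in their differences was not tested. Each runs 5′ to 3′ towards the gene, on build GRCm38.p6, at chr1:20820313-20820562 (minus strand), chr1:128359706-128359955 (minus), chr10:69352913-69353162 (minus) and chr2:118597961-118598210 (plus) in the order given. Capitals mark the motif letters searched on both strands: TTTCCCGC, TTTGGCGC, TTTCGCGC and TTTGCCGC for E2F, TTTGAA and TTCGAA for the CHR, and CCAAT.
Mcm3: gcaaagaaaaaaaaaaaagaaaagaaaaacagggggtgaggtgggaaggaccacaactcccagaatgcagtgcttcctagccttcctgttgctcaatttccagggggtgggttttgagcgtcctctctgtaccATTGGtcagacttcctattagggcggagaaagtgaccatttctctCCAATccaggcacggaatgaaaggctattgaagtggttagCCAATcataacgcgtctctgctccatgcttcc
Mcm6: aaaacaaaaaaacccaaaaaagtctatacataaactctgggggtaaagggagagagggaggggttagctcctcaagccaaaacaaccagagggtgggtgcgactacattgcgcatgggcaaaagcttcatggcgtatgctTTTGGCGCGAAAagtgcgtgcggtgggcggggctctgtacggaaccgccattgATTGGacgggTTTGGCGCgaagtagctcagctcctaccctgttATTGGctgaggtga
Cdk1: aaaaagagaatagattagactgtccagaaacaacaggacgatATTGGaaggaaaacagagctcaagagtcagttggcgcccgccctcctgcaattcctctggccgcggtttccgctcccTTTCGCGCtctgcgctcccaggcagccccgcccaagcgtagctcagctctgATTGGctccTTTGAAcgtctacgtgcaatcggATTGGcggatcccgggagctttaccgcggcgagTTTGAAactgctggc
Bub1b: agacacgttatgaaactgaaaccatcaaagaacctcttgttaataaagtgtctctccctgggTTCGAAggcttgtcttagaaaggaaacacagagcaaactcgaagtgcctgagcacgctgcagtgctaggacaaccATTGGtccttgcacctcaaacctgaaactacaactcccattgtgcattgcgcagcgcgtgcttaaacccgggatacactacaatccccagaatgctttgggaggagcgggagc
Mcm3 held 3 CCAAT matches and no E2F letters in the bases printed, and 2 E2F matches in the first 50 bases after its start. Mcm6 held 3 E2F matches, of which 2 overlap each other on opposite strands, and 2 CCAAT matches. Cdk1 held 1 E2F, 2 CHR and 3 CCAAT matches, one of its CHR matches lying 15 bases before the start. Bub1b held 1 CHR and 1 CCAAT match here and a second CHR match just after its start.

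A promoter entry was found for 30 of the 37 genes; none was found for Ccnd1, Ccnd2, Ccne2, Mcm4, Gmnn, Ccna2 and Aurkb. In windows of 250 bases before to 50 after the start, an E2F match was present in 10 of the 30 genes, against 2.26% of 32851 RefSeq promoters. CHR letters were in 10 of 30 and in 19.2% of all promoters, and CCAAT in 21 of 30 and in 37.4%. A gene counted if any of its promoter entries matched, while the shares of all promoters count single entries. By entry, the members gave 10 of 35 for E2F, 10 of 35 for the CHR and 23 of 35 for CCAAT. These are letter matches and not measured binding.

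In TPM, the members spanned a wide range, and most were low. Cyclin D1 (Ccnd1) led with a mean of 37.5 TPM over the 45 libraries, followed by the origin-opening factor Mcm10 at 32.3 TPM, thymidine kinase Tk1 at 28.7 TPM and the sliding clamp Pcna at 19.6 TPM. Geminin (Gmnn), the inhibitor of re-licensing, averaged 13.6 TPM, Ccnd3 12.2 TPM and Mcm7 11.0 TPM. The other tested members averaged between 0.509 TPM, for the topoisomerase Top2a, and 7.69 TPM, for the ribonucleotide reductase subunit Rrm2. The heat map of all members by library shows which libraries stood high or low in many of them.

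**Figure D1:**
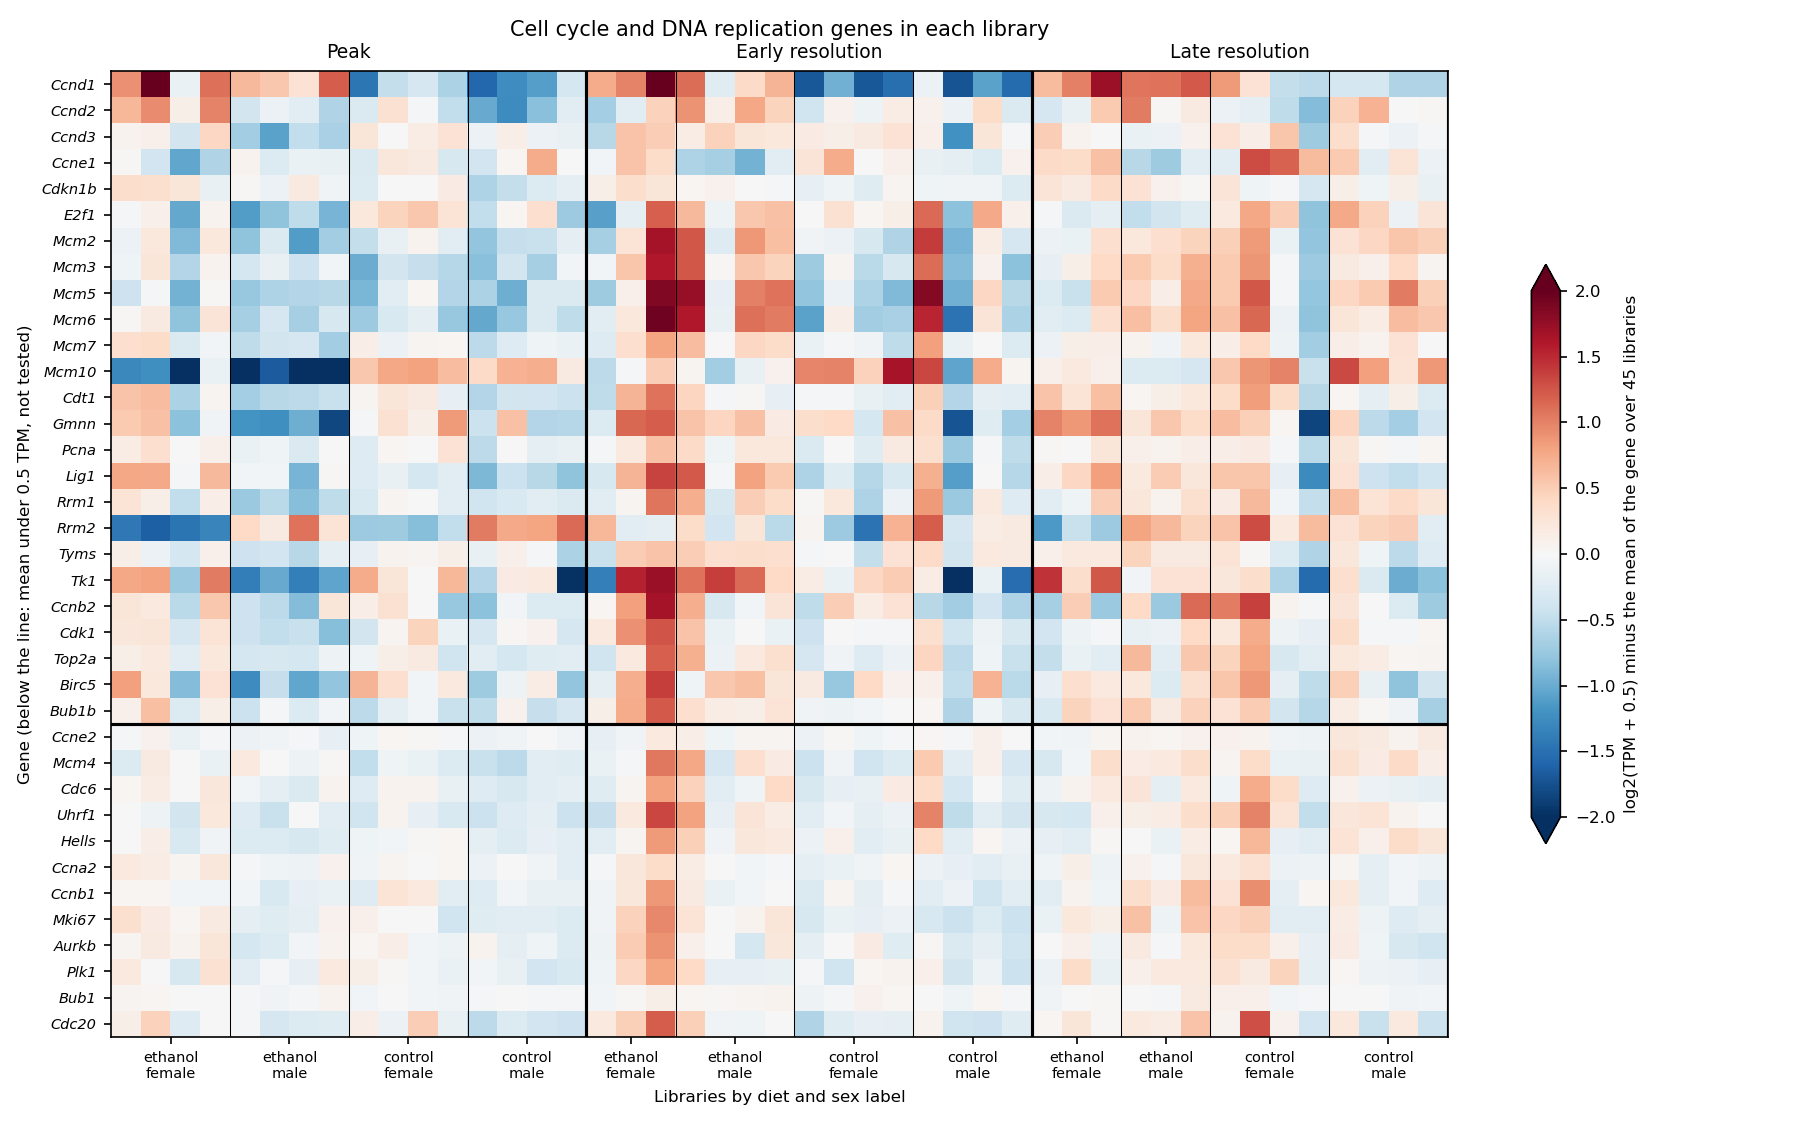
Each of the 37 genes (down) in each of the 45 libraries (across), coloured by log2(TPM + 0.5) minus that gene's mean over all libraries, with colours saturating at 2 and -2; the 12 genes too low to test lie below the line. The column of early ethanol female 3 is the reddest, with the highest value of all libraries for 26 of the 37 genes.

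The 12 members too low to test were Ccne2 (0.0711 TPM on average), Mcm4 (0.477 TPM), the origin factor Cdc6 (0.185 TPM), the chromatin proteins Uhrf1 (0.402 TPM) and Hells (0.173 TPM), and 7 mitotic genes. The mitotic ones were cyclin A2 (Ccna2, 0.131 TPM), cyclin B1 (Ccnb1, 0.198 TPM), the proliferation antigen Mki67 (0.380 TPM), the kinases Aurkb (0.248 TPM), Plk1 (0.211 TPM) and Bub1 (0.0347 TPM), and the anaphase activator Cdc20 (0.382 TPM). Their highest values in any library ran from 0.104 TPM for Bub1 to 1.67 TPM for Uhrf1. Mcm4 lay just outside the limit of 0.5 TPM, while Top2a (0.509 TPM) and Bub1b (0.510 TPM) lay just inside. Of these 12, 8 had their highest value in early ethanol female 3; Ccnb1 and Cdc20 peaked in late control female 2, Ccne2 in late control male 1 and Bub1 in late ethanol male 3. Thus 7 of the 12 mitotic members could not be tested.

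At peak injury, ethanol-labelled livers held more cyclin D1 and D2 and more p27, and less Mcm10 and Rrm2, and no fork or mitotic member passed the test. Of 25 tested members, 3 were higher and 2 lower in ethanol-labelled livers at an adjusted p under 0.05 (limma on log2(TPM + 0.5), Benjamini-Hochberg over 11244 genes), and 9 had an unadjusted p under 0.05. Of all genes tested, 27.1% were called here, 17.3% higher and 9.81% lower, and the count of members is to be read beside these shares. The members' median log2 difference was -0.08, against 0.05 for all genes. In whole liver, fewer cells of a type and less RNA per cell cannot be told apart.

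Cyclin D1 (Ccnd1, chr7:144929931-144939925, minus strand, mm10) had the largest rise among the cyclins. It was at 54.3, 125, 26.2 and 62.3 TPM in peak ethanol female libraries and at 45.1, 42.1, 35.3 and 67.5 TPM in ethanol male ones, against 10.2, 20.6, 22.6 and 18.4 TPM in control female and 9.31, 11.9, 13.1 and 22.4 TPM in control male ones. The 8 ethanol libraries lay above all 8 control libraries, as did 3.31% of tested genes in one direction or the other. Averaged over the sex labels, the log2 difference was 1.73 ± 0.27 (SE, adjusted p = 8.1e-06 by limma, higher in 8 of 8 libraries than the control mean of their sex label), and it was 1.72 within the female label and 1.74 within the male label.

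Cyclin D2 (Ccnd2), a second D cyclin, had lowest, median and highest values of 0.909, 1.64 and 3.71 TPM in the 8 ethanol libraries, against 0.388, 1.13 and 2.13 TPM in the 8 control libraries. The 2 groups overlapped, also within each sex label. Its log2 difference was 0.66 ± 0.18 (adjusted p = 0.0069 by limma, 8 of 8 libraries). Cdkn1b, whose product p27 inhibits cyclin-dependent kinases, was at 3.05, 3.76 and 4.54 TPM (lowest, median, highest) in ethanol libraries, against 2.08, 2.89 and 3.93 TPM in control libraries, a difference of 0.31 ± 0.09 (adjusted p = 0.0078, 7 of 8). The cyclins Ccnd3 and Ccne1 did not pass, at -0.40 (adjusted p = 0.076) and -0.33 (adjusted p = 0.16). E2f1, the transcription factor released from RB, was at -0.61 (adjusted p = 0.066).

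Mcm10 (chr2:4989714-5012791, minus strand), which loads the polymerase at opened origins, had the largest difference of the tested members at this stage, and it was a fall. In ethanol female libraries it was at 10.5, 10.9, 4.55 and 24.1 TPM and in ethanol male ones at 4.62, 7.99, 3.92 and 5.41 TPM, against 38.4, 45.6, 46.4 and 40.7 TPM in control female and 34.7, 43.1, 43.8 and 29.9 TPM in control male ones. Every ethanol library lay below every control library. The log2 difference was -2.33 ± 0.26 (adjusted p = 1.6e-08 by limma, 8 of 8). Mcm10 did not move with the helicase subunits it acts beside: Mcm3, Mcm5, Mcm6 and Mcm7 differed by 0.37, 0.00, 0.28 and -0.08, with adjusted p of 0.25 to 0.99, and Mcm2 by -0.10 (adjusted p = 0.82).

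Rrm2 (chr12:24708241-24714146, plus strand), the regulated subunit of ribonucleotide reductase, was lower in ethanol livers within each sex label. It stood at 2.16, 1.80, 2.09 and 2.37 TPM in ethanol female and 8.95, 7.61, 14.7 and 8.17 TPM in ethanol male libraries, against 3.83, 3.89, 3.48 and 4.60 TPM in control female and 14.1, 11.5, 11.9 and 15.1 TPM in control male ones. All 4 ethanol female libraries lay below the control female ones, while 1 of 4 ethanol male libraries lay within the control male range. The averaged difference was -0.60 ± 0.22 (adjusted p = 0.040 by limma, 7 of 8), and its partner Rrm1 was at -0.11 (adjusted p = 0.69). The Rrm2 call was lost in 11 of 16 runs without 1 peak library, at -0.61 to -0.55 (adjusted p of 0.052 to 0.077). Those libraries were control female 1, 2 and 4, control male 1 and 4, ethanol female 1, 2 and 3, and ethanol male 1, 2 and 4.

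**Figure D2:**
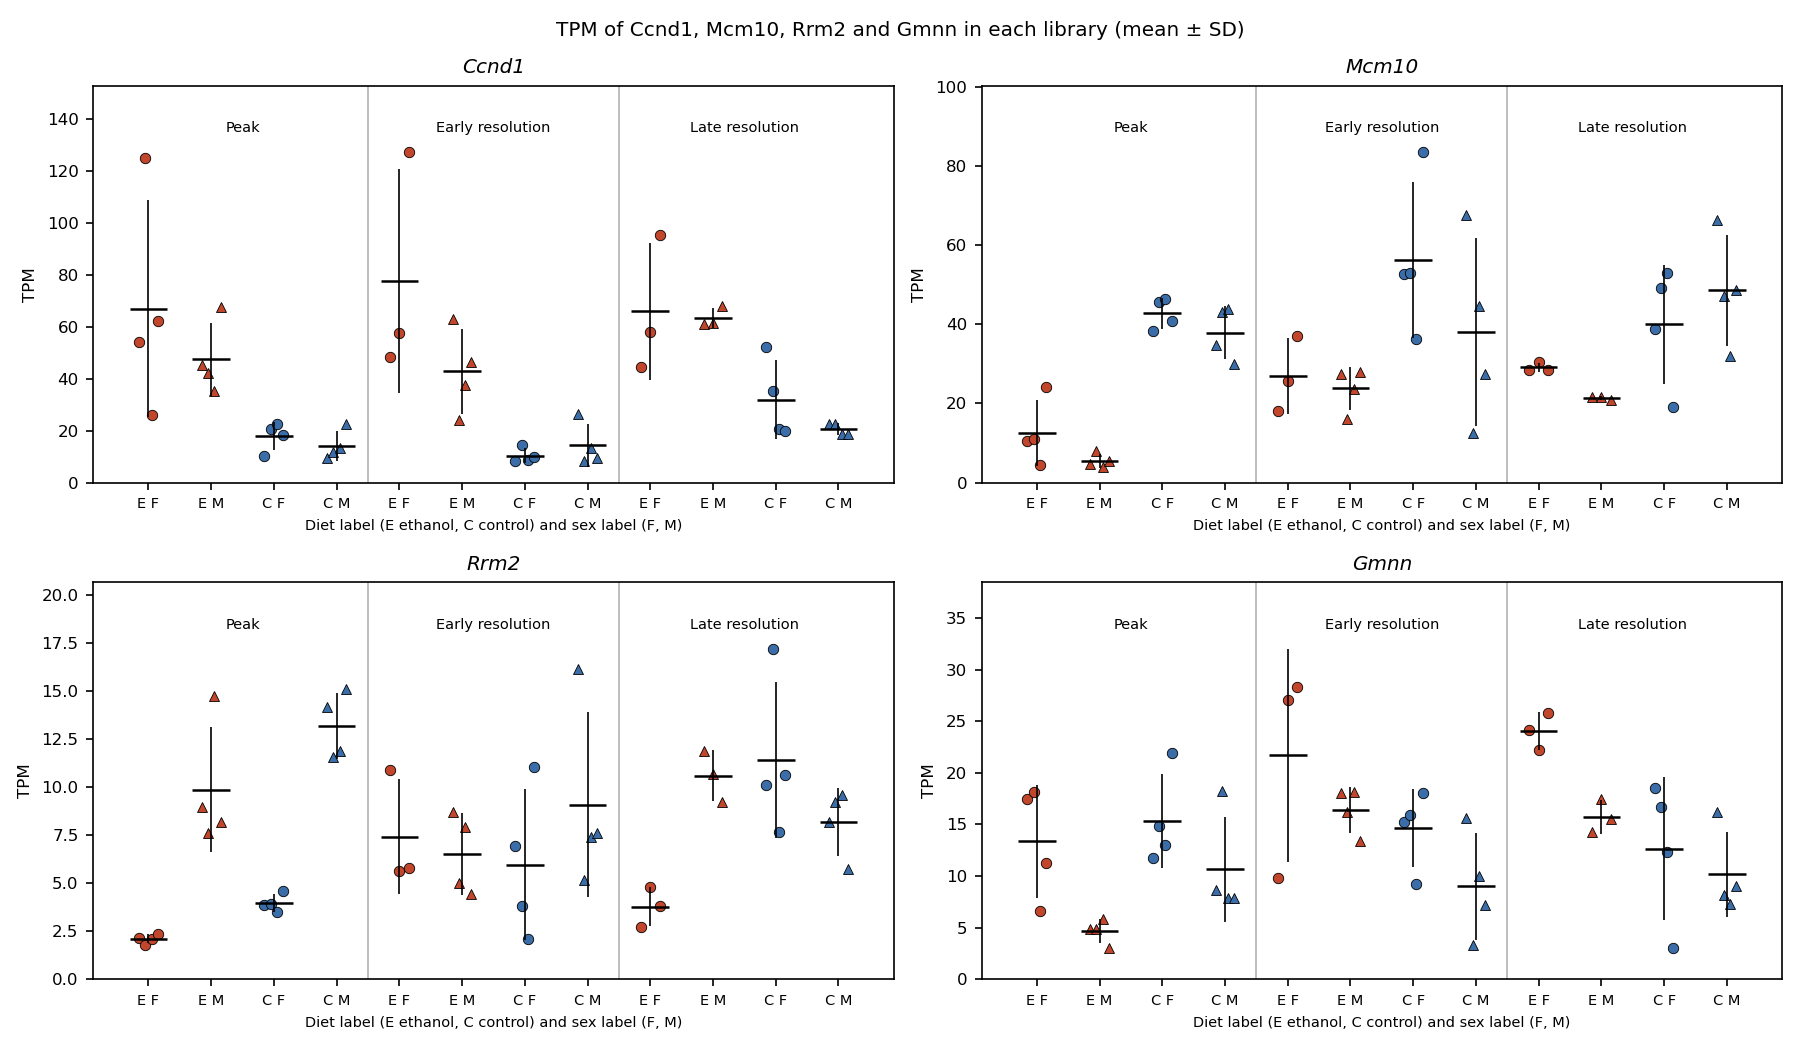
TPM per library of Ccnd1, Mcm10, Rrm2 and Gmnn at peak, early and late resolution, with ethanol (red) left of control (blue); each point is a library, circles labelled female and triangles male, and bars give the mean ± SD of each group. Ccnd1 lies higher in ethanol libraries at all 3 stages, and Mcm10 lies lowest in the ethanol libraries at peak, at 3.92 to 24.1 TPM.

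Scaling each library by the median ratio of its genes, in place of the deposited TPM scale, raised the count at peak to 9 members, 4 higher and 5 lower, with 35.6% of all genes called (17.1% higher and 18.5% lower). The DNA ligase Lig1 was then also higher (0.56, adjusted p = 0.025 by limma), and Ccnd3 (-0.45, adjusted p = 0.016), E2f1 (-0.67, adjusted p = 0.014) and Gmnn (-0.72, adjusted p = 0.022) were lower. Endothelial and stellate cell markers were higher as well at this stage: 7 of 7 and 6 of 7 tested markers were called higher in ethanol-labelled livers, and their summed levels were 75.1 to 249 TPM against 47.8 to 183 TPM in controls for endothelial cells and 75.8 to 259 TPM against 33.2 to 111 TPM for stellate cells. The highest stellate sum, 259 TPM in a peak ethanol female library, included desmin (Des) at 109 TPM, a marker that averaged 3.51 TPM over all libraries. The part of endothelial and stellate cells in the members' differences was not tested.

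At early resolution, 3 days after the return to control diet, cyclin D1 was higher in ethanol-labelled livers together with members of licensing, the fork, nucleotide supply and mitosis. All of these calls except that of cyclin D1 were lost without a single library, early ethanol female 3. Of 25 tested members 8 were higher and none lower (17 at an unadjusted p under 0.05), where 16.7% of all genes were called, 14.3% higher and 2.46% lower. Of the 25, 22 had a positive difference, and their median was 0.48 on the log2 scale, against 0.13 for all genes. The 8 were Ccnd1, the helicase subunits Mcm3 and Mcm6, the fork proteins Pcna and Lig1, the nucleotide enzyme Tk1, and the mitotic kinases Cdk1 and Bub1b. Bub1b (0.510 TPM on average) and Top2a (0.509 TPM) passed the limit of 0.5 TPM only narrowly. Both averaged highest in early ethanol female libraries, so their part in these counts and this median leans on the group where they are high. After median-of-ratios scaling the same 8 remained higher and Mcm10 was called lower, with a members' median of 0.39 and an all-gene median of -0.01, and 8.43% of all genes were called higher and 7.48% lower.

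Cyclin D1 (Ccnd1) was at 48.4, 57.5 and 127 TPM in ethanol female and 63.1, 24.2, 37.6 and 46.5 TPM in ethanol male libraries, against 8.50, 14.5, 8.56 and 9.76 TPM in control female and 26.4, 8.36, 13.4 and 9.51 TPM in control male ones. Only 1 pair crossed: control male 1, at 26.4 TPM, lay above ethanol male 2, at 24.2 TPM. The log2 difference was 2.18 ± 0.28 (adjusted p = 4e-07 by limma, 7 of 7 libraries), and 1.96 (adjusted p = 8.1e-06) without ethanol female 3. Within the female label it was 2.75 and within the male label 1.60, both called; a test of that difference gave -1.15 (male minus female, adjusted p = 1, unadjusted p = 0.048).

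Among the licensing genes, Mcm3 (chr1:20802968-20820312, minus strand) was at 4.20, 6.65 and 14.2 TPM in ethanol female and 11.0, 4.47, 6.57 and 6.12 TPM in ethanol male libraries, against 2.47, 4.55, 2.85 and 3.41 TPM in control female and 10.1, 2.17, 4.68 and 2.25 TPM in control male ones. Mcm6 (chr1:128331590-128359664, minus strand) was at 3.13, 4.39 and 15.7 TPM in ethanol female and 12.2, 3.30, 8.54 and 8.12 TPM in ethanol male libraries, against 1.51, 4.10, 2.11 and 2.17 TPM in control female and 11.5, 1.00, 4.56 and 2.22 TPM in control male ones. In both genes the same libraries stood high, ethanol female 3 and ethanol male 1 on one side and control male 1 on the other, so the groups overlapped. The log2 differences were 0.88 ± 0.25 for Mcm3 (adjusted p = 0.012 by limma, 7 of 7) and 1.10 ± 0.32 for Mcm6 (adjusted p = 0.017, 6 of 7).

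The other helicase subunits had positive differences that did not pass, Mcm2 at 0.62 (adjusted p = 0.13), Mcm5 at 0.87 (adjusted p = 0.068) and Mcm7 at 0.36 (adjusted p = 0.098). Mcm5 shows the spread: its lowest, median and highest values were 0.722, 3.50 and 6.67 TPM in ethanol libraries, against 0.526, 0.831 and 6.67 TPM in control libraries. The licensing factor Cdt1 (0.36, adjusted p = 0.21) and geminin (Gmnn, 0.73, adjusted p = 0.092) did not pass either. Mcm10 again ran the other way, at 18.2, 25.7 and 37.1 TPM in ethanol female and 27.4, 16.1, 23.8 and 27.9 TPM in ethanol male libraries, against 52.6, 52.9, 36.3 and 83.5 TPM in control female and 67.6, 12.5, 44.7 and 27.4 TPM in control male ones. Its difference of -0.75 ± 0.27 missed the threshold (adjusted p = 0.056 by limma) and passed it after median-of-ratios scaling, at -0.90 (adjusted p = 0.0064).

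At the fork, Lig1 (chr7:13277283-13311433, plus strand), which joins Okazaki fragments, was at 1.48, 3.49 and 5.82 TPM in ethanol female and 5.30, 1.92, 3.84 and 3.08 TPM in ethanol male libraries. Against these stood 1.12, 1.60, 1.16 and 1.51 TPM in control female and 3.55, 0.653, 2.00 and 1.16 TPM in control male libraries. All 3 stages gave Lig1 a positive difference, called at early resolution (0.94 ± 0.25, adjusted p = 0.0085 by limma, 7 of 7), and at 0.60 (adjusted p = 0.061) at peak and 0.55 (adjusted p = 0.16) at late resolution. Pcna (chr2:132249162-132253314, minus strand), the polymerase clamp, had lowest, median and highest values of 18.2, 22.4 and 29.2 TPM in ethanol libraries, against 11.3, 17.7 and 24.2 TPM in control libraries. Its difference was the smallest of the 8, at 0.38 ± 0.13 (adjusted p = 0.034, 7 of 7), and 0.23 (adjusted p = 0.048) after median-of-ratios scaling.

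Of the nucleotide enzymes, Tk1 (chr11:117815526-117826092, minus strand), which salvages thymidine, was at 8.78, 68.6 and 78.8 TPM in ethanol female and 50.1, 61.5, 51.7 and 31.0 TPM in ethanol male libraries, against 26.0, 21.2, 31.4 and 33.4 TPM in control female and 25.9, 5.29, 21.3 and 7.80 TPM in control male ones. Ethanol female 1, at 8.78 TPM, lay with the lowest controls, and without it 5 of the other 6 ethanol libraries exceeded every control. The difference was 1.14 ± 0.38 (adjusted p = 0.036 by limma, 6 of 7), and the call was lost in 9 of 15 runs without 1 library of the stage, at 0.87 to 1.13 (adjusted p of 0.055 to 0.15). Those libraries were ethanol female 2 and 3, ethanol male 1, 2 and 3, control female 1 and 2, and control male 2 and 4. Tk1 overlaps the gene Afmid on the opposite strand by 169 bases. Afmid, at 114 TPM on average, was itself higher here, at 0.80 (adjusted p = 0.012), and whether the authors counted by strand is not given in the sources used here. Rrm1, Rrm2 and Tyms, the thymidylate synthase, differed by 0.36, 0.03 and 0.27, with adjusted p of 0.21, 0.95 and 0.21.

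Of the mitotic genes, Cdk1 (chr10:69335146-69352938, minus strand) was at 0.865, 1.75 and 2.35 TPM in ethanol female and 1.27, 0.590, 0.682 and 0.585 TPM in ethanol male libraries, against 0.393, 0.682, 0.669 and 0.654 TPM in control female and 0.987, 0.402, 0.616 and 0.452 TPM in control male ones. The ethanol female libraries all lay above the control female ones, while 3 of 4 ethanol male libraries lay inside the control male range. The averaged difference was 0.56 ± 0.16 (adjusted p = 0.013 by limma, 5 of 7). Within the female label it was 0.91 (called), and the difference between the labels did not pass (-0.71, adjusted p = 1).

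Bub1b (chr2:118598211-118641591, plus strand) was at 0.557, 1.12 and 1.77 TPM in ethanol female and 0.731, 0.582, 0.554 and 0.678 TPM in ethanol male libraries, against 0.422, 0.405, 0.433 and 0.473 TPM in control female and 0.498, 0.140, 0.414 and 0.275 TPM in control male ones. It was the 1 member of the 25 whose ethanol and control libraries did not overlap at this stage, where 2.73% of tested genes were so separated. Its mean over all libraries, 0.510 TPM, passed the limit of 0.5 TPM only narrowly, and 5 of the 12 groups averaged 0.5 TPM or more. The highest group mean, 1.15 TPM, was that of early ethanol female, so its place among the tested genes leans on the group where it is high. The difference was 0.61 ± 0.16 (adjusted p = 0.0083 by limma, 7 of 7). Cyclin B2 (Ccnb2) at 0.73 (adjusted p = 0.058), Top2a at 0.48 (adjusted p = 0.059) and survivin (Birc5) at 0.52 (adjusted p = 0.16) did not pass. Of the mitotic members under the limit, a fit with no filter on low values called Ccna2 (0.23), Mki67 (0.57), Aurkb (0.36) and Cdc20 (0.63) higher. It did not call Ccnb1, Plk1 or Bub1, and of all genes it called 2260 of 19006 in either direction. These members remain too low to read, at levels where log2(TPM + 0.5) compresses any change. Ccna2 (0.307 TPM at most), Mki67 and Aurkb were highest in early ethanol female 3, and Cdc20 in late control female 2.

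**Figure D3:**
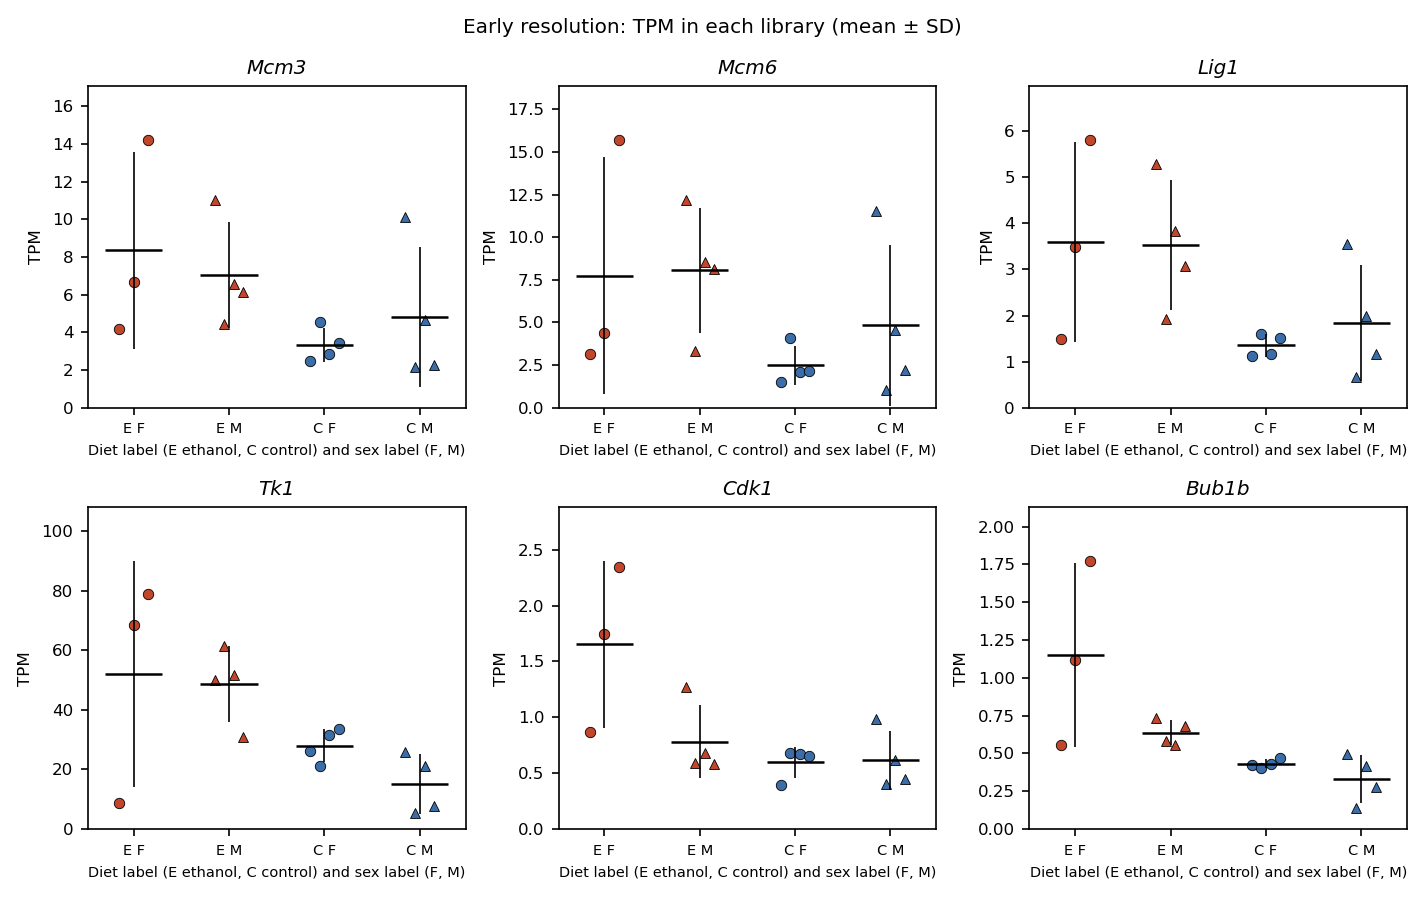
TPM per library at early resolution for Mcm3, Mcm6, Lig1, Tk1, Cdk1 and Bub1b, ethanol (red) left of control (blue); each point is a library, circles labelled female and triangles male, and bars give the group mean ± SD. Bub1b has no overlap between ethanol and control libraries, and ethanol female 3 is the highest point in each panel.

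The number of members called at early resolution moved with single libraries. Early ethanol female 3 held the highest value of all 45 libraries for 26 of the 37 members and for 18 of the 25 tested ones, against 4.94% of all tested genes. Its tested members lay a median of 1.38 above the control mean of the stage on the log2 scale (23 of 25 above), where its all-gene median lay 0.31 above. The next were ethanol male 1 at 0.70, control male 1 at 0.59 and ethanol female 2 at 0.50, while ethanol female 1 lay at -0.15. Without ethanol female 3, the members called fell to 2, Ccnd1 higher and Mcm10 lower (-0.87, adjusted p = 0.043 by limma). The other 7 kept their direction but missed the threshold: Lig1 0.74 (adjusted p = 0.053), Bub1b 0.48 (0.054), Cdk1 0.44 (0.073), Mcm3 0.66 (0.076), Mcm6 0.78 (0.11), Pcna 0.30 (0.14) and Tk1 0.87 (0.15). Mcm6 was also lost without control male 2 (0.87, adjusted p = 0.059), and Pcna without each of ethanol female 2 and 3, ethanol male 1, 3 and 4, control female 1 and 3, and control male 2 and 4 (0.29 to 0.39, adjusted p of 0.050 to 0.14). A fit of the early libraries alone called 5 members, Ccnb2 (0.73) among them, and Mcm3 (adjusted p = 0.082), Mcm6 (0.12), Pcna (0.13) and Tk1 (0.10) were lost in it. Without ethanol female 1, which lay low, 18 members were called, all higher, and without control male 1, which lay high, 13 were.

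The marker sums of early ethanol female 3 lay within the range of the other early libraries for T and NK cells (6.14 TPM, others 2.00 to 14.8 TPM), B cells (9.46 TPM, others 1.07 to 10.4 TPM) and macrophages (610 TPM, others 142 to 628 TPM). Its hepatocyte marker sum was the highest, 205527 TPM against 92086 to 194910 TPM. Over the stage, immune markers were higher in ethanol-labelled livers: 7 of 9 macrophage, 4 of 5 tested T and NK and 2 of 4 tested B cell markers were called higher. The sums were 387 to 628 TPM against 142 to 460 TPM in controls for macrophages, 4.75 to 14.8 TPM against 2.00 to 5.31 TPM for T and NK cells and 4.31 to 10.4 TPM against 1.07 to 9.72 TPM for B cells. Stellate cell markers were called higher in 3 of 7, and their sums did not overlap, at 112 to 148 TPM in ethanol against 56.3 to 106 TPM in control livers. Of 7 endothelial markers 1 was called higher, with overlapping sums of 119 to 197 TPM against 95.7 to 149 TPM. No neutrophil marker of the 5 tested was called (3 at an unadjusted p under 0.05 by limma, and no call after scaling), and their sum reached 99.1 TPM in ethanol female 1, the library in which the members lay low, where the other early libraries held 2.16 to 34.9 TPM. Of these markers Cd8a was at 0 in 2 of the 45 libraries and Klrd1 and Pax5 in 1 each. The part of those cells in the members' differences was not tested.

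At late resolution, after 2 weeks of control diet, cyclin D1 and geminin were higher in ethanol-labelled livers, and the other tested members did not pass. The 2 called of 25 (10 at an unadjusted p under 0.05) compare with 12.8% of all genes, 8.82% higher and 3.98% lower. The members' median difference was 0.03, against 0.05 for all genes, and 14 of 25 were positive.

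Cyclin D1 (Ccnd1) was at 44.6, 57.9 and 95.5 TPM in ethanol female and 61.0, 61.4 and 68.0 TPM in ethanol male libraries, against 52.0, 35.2, 20.5 and 19.8 TPM in control female and 22.4, 22.5, 18.7 and 18.7 TPM in control male ones. Its highest control was late control female 1, the one control library with the female X and Y pattern, and this library alone made the groups overlap. The difference was 1.34 ± 0.29 (adjusted p = 0.0017 by limma, 6 of 6), and 1.48 (adjusted p = 0.00038) without that library.

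Geminin (Gmnn, chr13:24751845-24761923, minus strand) was at 24.2, 22.2 and 25.8 TPM in ethanol female and 14.2, 17.5 and 15.5 TPM in ethanol male libraries, against 18.6, 16.7, 12.3 and 2.99 TPM in control female and 16.2, 8.11, 7.27 and 9.01 TPM in control male ones. The ethanol female libraries lay above every control. The difference was 0.91 ± 0.31 (adjusted p = 0.047 by limma, 6 of 6), and the call was lost in 10 of 14 runs without 1 late library, at 0.64 (adjusted p = 0.15) without control female 4 and at 0.85 to 0.95 (adjusted p of 0.066 to 0.093) without each of the 6 ethanol libraries or control male 2, 3 or 4. Without control female 1, 5 members were called: Ccnd1, Gmnn (1.05, adjusted p = 0.018), Cdkn1b (0.28, adjusted p = 0.030) and Tyms (0.44, adjusted p = 0.041) higher, and Ccne1 (-0.60, adjusted p = 0.013) lower.

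Mcm10 at late resolution was at 28.5, 30.4 and 28.5 TPM in ethanol female and 21.6, 21.7 and 20.9 TPM in ethanol male libraries, against 38.7, 49.1, 52.9 and 19.1 TPM in control female and 66.4, 47.1, 32.0 and 48.8 TPM in control male ones. Control female 4, at 19.1 TPM, was the 1 control below the ethanol libraries. The difference of -0.74 did not pass on the deposited scale (adjusted p = 0.080 by limma) and passed after median-of-ratios scaling (-0.80, adjusted p = 0.018). Tk1 differed by 1.01 (adjusted p = 0.087) and Rrm2 by -0.54 (adjusted p = 0.13). Within the female label Rrm2 was called lower (-1.45), at 2.73, 4.77 and 3.80 TPM in ethanol against 10.1, 17.2, 7.66 and 10.6 TPM in control libraries, and the male-labelled libraries held 11.8, 10.7 and 9.20 TPM in ethanol against 8.19, 9.22, 9.59 and 5.70 TPM in control. The difference between the labels was 1.82 (adjusted p = 0.21, unadjusted p = 0.00055).

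The number of late calls moved with scaling, to 4 under median-of-ratios scaling with 20% of all genes called, 9.2% higher and 10.8% lower (Ccnd1 1.28, Gmnn 0.86 and Tyms 0.31 higher, Mcm10 lower). T and NK markers were called higher in 5 of 5 and B cell markers in 3 of 4 tested at this stage, with sums of 5.90 to 15.5 TPM in ethanol against 1.49 to 8.48 TPM in control livers and 5.15 to 43.8 TPM against 1.15 to 5.38 TPM. The B cell sum of 43.8 TPM was in a late ethanol male library, in a group with a median of 5.21 TPM. Of 9 macrophage markers 5 were called higher, with overlapping sums of 415 to 673 TPM in ethanol against 180 to 721 TPM in control livers. Hepatocyte marker sums ran from 189835 to 219739 TPM in ethanol against 115934 to 193380 TPM in control livers. The part of these cells was not tested.

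**Figure D4:**
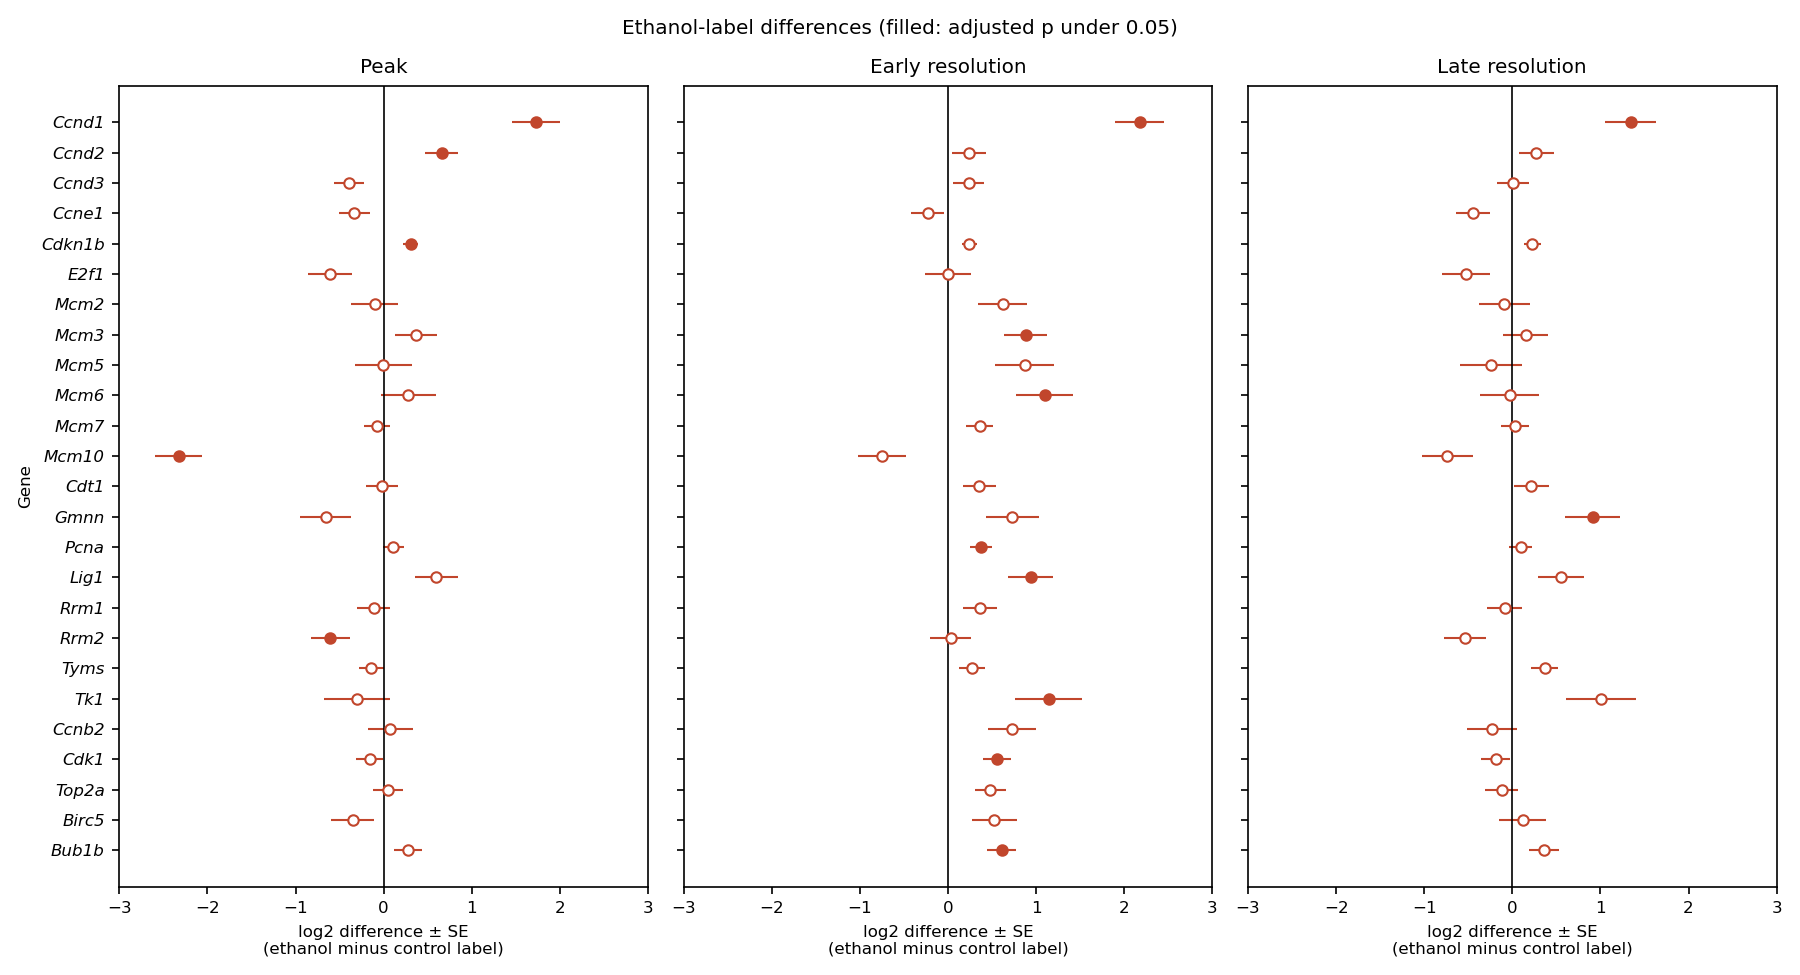
Log2 difference (ethanol-labelled minus control-labelled, ± SE) of the 25 tested members at peak, early and late resolution; filled points passed an adjusted p under 0.05. Ccnd1 is filled at all 3 stages (1.73, 2.18 and 1.34), and 22 of the 25 members lie right of 0 at early resolution, 8 of them filled.

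The differences themselves were compared between stages. From peak to late resolution the ethanol minus control difference of Mcm10 moved by 1.59 (adjusted p = 0.020 by limma) and that of Gmnn by 1.57 (adjusted p = 0.032), both upward, where 3.98% of all genes were called. Mcm10 thus differed by -2.33 at peak and -0.74 at late resolution, and Gmnn by -0.66 and 0.91. In 9 of 30 runs without 1 library of either stage, and with no filter on low values, 1 member passed in place of 2. With the replicate block no member passed, so these calls did not hold under every alternative. From peak to early resolution no member passed, nor did any gene (0%); 8 members had an unadjusted p under 0.05, among them Mcm10 (1.58, adjusted p = 0.12), Gmnn (1.39, adjusted p = 0.18), Tk1 (1.44, adjusted p = 0.20) and Cdk1 (0.71, adjusted p = 0.18). Without early ethanol female 1, 7 members passed, and under median-of-ratios scaling Mcm10 alone did. From early to late resolution no member and no gene (0%) passed, with 7 members at an unadjusted p under 0.05, among them Mcm6 (-1.13) and Mcm5 (-1.11). The peak-to-early and early-to-late tests share the early libraries.

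Within one sex label fewer members were called. At peak, Ccnd1 and Mcm10 (-1.95) were called within the female label, where 6.65% of all genes were. Ccnd1, Ccnd3 (-0.67), Cdkn1b (0.39) and Mcm10 (-2.71) were called within the male label, with 23.4% of all genes. At early resolution Ccnd1 and Cdk1 were called within the female label (3.92% of all genes) and Ccnd1 and Tk1 (1.89) within the male label (8.39%). At late resolution Rrm2 was called within the female label (2.46%) and Ccnd1 (1.60) within the male label (6.44%). No test of the difference between the labels passed for any member by limma at any stage, where 0.16% of genes passed at peak, 0.00889% at early and 0.0445% at late resolution; 0, 2 and 2 members had an unadjusted p under 0.05.

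Between the sex labels, 12 members were called at peak, none at early and 1 at late resolution. Male-labelled peak livers held more Rrm2 and less of 11 other members than female-labelled ones, where 51% of all genes were called, 4.26% higher and 46.7% lower. The members' median difference (male minus female) was -0.40, against -0.29 for all genes. After median-of-ratios scaling, which moved the all-gene median to about 0, the counts were 2 higher and 5 lower, with 31.9% of genes called, 15.3% higher and 16.6% lower. Within each diet label both sexes by label carried one X and Y pattern, apart from the library named above, so these are comparisons of labels.

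The lowest, median and highest values of Rrm2 were 7.61, 11.7 and 15.1 TPM in the 8 male-labelled libraries, against 1.80, 2.92 and 4.60 TPM in the 8 female-labelled libraries. The groups did not overlap, as in 4.05% of tested genes. The difference was 1.78 ± 0.22 (adjusted p = 6.3e-07 by limma, 8 of 8), 1.95 within ethanol and 1.62 (adjusted p = 0.0033) within control livers, and 2.09 after median-of-ratios scaling. At early and late resolution Rrm2 was not called between the labels.

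Of the 11 members lower in male-labelled peak livers, 5 kept their call after scaling. Ccnd2 was at 0.388, 1.03 and 1.46 TPM (lowest, median, highest) in male against 1.01, 1.98 and 3.71 TPM in female livers (-0.86 ± 0.18, adjusted p = 0.00042 by limma, -0.62 scaled). Gmnn was at 3.03, 6.82 and 18.2 TPM against 6.56, 13.9 and 21.9 TPM (-0.96 ± 0.29, adjusted p = 0.0070, -0.64 scaled), and the licensing factor Cdt1 at 0.170, 0.268 and 0.333 TPM against 0.196, 0.665 and 1.14 TPM (-0.61 ± 0.18, adjusted p = 0.0063, -0.47 scaled). These low levels of Cdt1 overlapped at 1 female-labelled library, ethanol female 3.

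Tk1 was at 5.60, 11.2 and 26.8 TPM in male against 13.8, 38.5 and 48.5 TPM in female livers (-1.32 ± 0.37, adjusted p = 0.0041 by limma, -0.99 scaled). Its overlapping neighbour Afmid was also lower (-0.54, adjusted p = 0.038). Birc5, which guards chromosome segregation, was at 0.229, 0.530 and 1.42 TPM in male against 0.447, 1.56 and 2.58 TPM in female livers (-0.83 ± 0.25, adjusted p = 0.0062, -0.63 scaled). In both genes the 2 groups overlapped.

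The other 6 lost their call under scaling. They were Ccnd3 (-0.51, adjusted p = 0.013 by limma), Cdkn1b (-0.27, adjusted p = 0.011), E2f1 (-0.59, adjusted p = 0.046), Mcm7 (-0.42, adjusted p = 0.017), Lig1 (-0.61, adjusted p = 0.034) and Cdk1 (-0.40, adjusted p = 0.029). Cdkn1b changed sign, to 0.03 (adjusted p = 0.84) after median-of-ratios scaling and 0.08 (adjusted p = 0.52) after quantile normalization, so its direction rests on the TPM scale. E2f1, Lig1 and Cdk1 also lost their call in 11, 7 and 6 of 16 runs without 1 peak library, at -0.61 to -0.51 (adjusted p of 0.055 to 0.10), -0.60 to -0.50 (0.053 to 0.092) and -0.38 to -0.33 (0.053 to 0.079). For E2f1 those were ethanol female 1, 2 and 4, ethanol male 1, 2 and 4, control female 2, 3 and 4, and control male 1 and 4. For Lig1 they were ethanol female 1, 2 and 4, ethanol male 3, control female 2, and control male 1 and 4, and for Cdk1 ethanol female 2 and 4, ethanol male 4, control female 3, and control male 1 and 4. Scaling added Ccne1 as higher (0.49, adjusted p = 0.026).

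**Figure D5:**
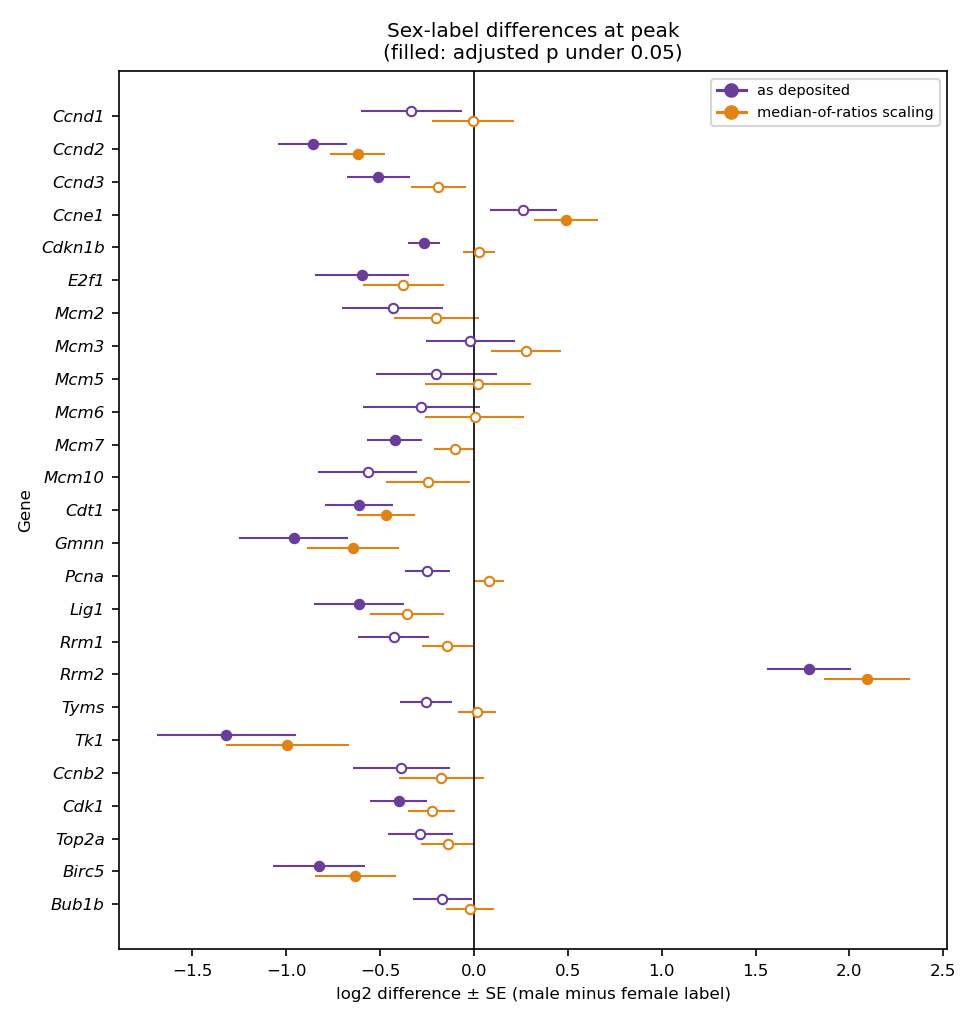
Log2 difference (male-labelled minus female-labelled, ± SE) of the 25 tested members at peak, on the deposited TPM scale and after median-of-ratios scaling; filled points passed an adjusted p under 0.05. Rrm2 is far right on both scales (1.78 and 2.09), and every point shifts right after scaling, Cdkn1b among those that cross 0.

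Within the ethanol-labelled livers, 11 members were called (1 higher, 10 lower), with 49.4% of all genes called (4.24% higher and 45.2% lower), and within the control-labelled ones 1, Rrm2, with 2.9% of all genes. Among the ethanol libraries alone Mcm10 (-0.94, adjusted p = 0.035 by limma) and Rrm1 (-0.67, adjusted p = 0.035) were also lower in male-labelled ones. The test of that difference passed for no member, as given above. Beside these counts, 6 of 7 endothelial markers were lower in male-labelled peak livers (sums of 47.8 to 165 TPM against 87.3 to 249 TPM) and 4 of 5 tested neutrophil markers were higher (31.1 to 152 TPM against 5.20 to 69.0 TPM). Their part was not tested.

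At early resolution no member was called between the sex labels by limma (4 at an unadjusted p under 0.05), with 0.596% of all genes called. Scaling gave 1 (1.8% of all genes), Ccne1, lower in male-labelled livers (-0.66, adjusted p = 0.042). At late resolution Ccne1, the cyclin that starts S phase, was the 1 member called (3 at an unadjusted p under 0.05), with 3.25% of all genes. It was at 0.477, 0.883 and 1.81 TPM (lowest, median, highest) in the 7 male-labelled against 0.866, 1.90 and 3.44 TPM in the 7 female-labelled libraries, and the groups overlapped. The difference was -0.77 ± 0.19 (adjusted p = 0.025 by limma, 7 of 7), and the call was lost in 7 of 14 runs without 1 late library, at -0.79 to -0.70 (adjusted p of 0.051 to 0.089), namely ethanol female 1 and 2, ethanol male 1 and 2, control female 3, and control male 2 and 4.

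Genes beyond the members were counted from lists of the same pathways. For diet, the share of all genes called at peak was 27.1% (17.3% higher, 9.81% lower). It was 16.7% at early (14.3%, 2.46%) and 12.8% at late resolution (8.82%, 3.98%). After median-of-ratios scaling the shares were 35.6% (17.1%, 18.5%), 15.9% (8.43%, 7.48%) and 20% (9.2%, 10.8%). All list counts for diet below are to be read beside these shares, and not as results about a pathway. At peak the largest change was in Ccnf, the F-box cyclin of G2, at -1.73 ± 0.20 in ethanol-labelled livers (adjusted p = 1.7e-08 by limma, 8 of 8), with no overlap between the groups, and it was lower also at early (-0.99, adjusted p = 0.00082) and late resolution (-1.14, adjusted p = 0.00030). The centrosome kinase Nek2 was lower at peak (-0.84, adjusted p = 0.0012) and late (-0.94, adjusted p = 0.0022). Of 18 tested mitosis genes (40 listed), 1 was higher and 2 lower at peak, 3 higher and 1 lower at early and 3 lower at late resolution. After median-of-ratios scaling these counts were 1 higher and 5 lower, 2 higher and 1 lower, and 1 higher and 3 lower. At early resolution the anaphase ubiquitin enzyme Ube2c was higher (0.88, adjusted p = 0.0020, 0.76 scaled).

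Of 14 tested origin licensing and firing genes (20 listed), none was higher and 3 were lower at peak, among them Gins4 of the helicase complex (-0.44, adjusted p = 0.011 by limma), and none was called at early or late resolution. After scaling, 6 were lower at peak, 2 at early and 1 at late resolution, and none was higher. Of 28 tested fork genes (29 listed), 1 was higher and 3 lower at peak and 2 were higher at early resolution, and none was called late; after scaling the peak counts were the same, and 1 was higher and 1 lower early and 1 lower late. Of 11 tested nucleotide genes (13 listed), Impdh1, which makes guanine nucleotides, was higher at peak (0.43, adjusted p = 0.0020) and early (0.39, adjusted p = 0.0099), and the CTP synthase Ctps lower early (-0.62, adjusted p = 0.013). Scaling gave 1 higher and 1 lower nucleotide gene at peak and at early resolution, and 1 lower late. The median early difference of the licensing list was 0.08, that of the fork list 0.24 and that of all genes 0.13.

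Among the regulators, the CDK4 and CDK6 inhibitor Cdkn2c (p18) was higher in ethanol-labelled livers at early (1.15 ± 0.18, adjusted p = 1.5e-05 by limma, 7 of 7, 1.01 scaled) and late resolution (1.03 ± 0.19, adjusted p = 0.00018, 6 of 6), without overlap at late resolution, where 0.738% of genes had none. Its relative Cdkn2d (p19) was higher late (0.66, adjusted p = 0.013). Of the 3 tested inhibitors (7 listed) none was called at peak, and 1 was higher after scaling. E2f4 was higher at peak (0.45, adjusted p = 5e-05), as 1 of 11 tested RB and E2F regulators (19 listed) beside 1 lower; none was called early and 1 was lower late. After scaling, 2 of these regulators were lower at peak and 2 late. Of 8 tested kinases and phosphatases (12 listed) 1 was lower at peak and none was called later, and scaling added 1 lower early. Of 8 further cyclins, 2 were higher at peak and 2 early, Ccnl1 in both (0.82 and 0.58, adjusted p = 3.2e-05 and 0.0050), and none late; the 2 early calls were lost after scaling.

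Between the sex labels at peak most listed genes that were called were lower in male-labelled livers on the deposited scale, as were most genes called. Of all genes 46.7% were called lower and 4.26% higher there, and 16.6% and 15.3% after median-of-ratios scaling. Lower in male-labelled livers were 8 of 14 licensing, 13 of 28 fork, 3 of 11 nucleotide, 8 of 18 mitosis, 8 of 11 RB and E2F, 6 of 8 kinase and 5 of 8 further cyclin genes. Higher were 1 fork, 1 nucleotide and 1 mitosis gene. After scaling, the counts lower were 2, 4, 0, 2, 5, 3 and 2 in the order given, and those higher were 0, 4, 5, 1, 0, 1 and 1. These counts too are to be read beside the shares of all genes, and not as results about a pathway. The median difference of the nucleotide list was -0.10 on the deposited scale and 0.19 after scaling. The all-gene medians were -0.29 and -0.01. Calls that held on both scales were the polymerase subunits Pold2 (-0.87, adjusted p = 0.00030 by limma, -0.56 scaled) and Pola2 (-0.94, -0.66 scaled), the E2F repressor E2f6 (-0.93, adjusted p = 4e-05, -0.70 scaled), its partner family member Tfdp2 (-0.88, -0.61 scaled), Dbf4, which activates the origin kinase (-0.64, -0.45 scaled), and the kinases Cdk2 (-0.72, -0.43 scaled) and Cdk6 (-0.74, -0.52 scaled). The p21 gene Cdkn1a, the p53-induced CDK inhibitor, was higher, at 2.39 ± 0.70 (adjusted p = 0.0060, 8 of 8, 2.71 scaled). At late resolution the topoisomerase Top1 (0.61, adjusted p = 0.020) and cyclin C (Ccnc, 0.85, adjusted p = 0.021) were higher in male-labelled livers, and no listed gene was called at early resolution.

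Some members share sequence with other genes, which could split or add reads. Processed pseudogenes are annotated for Ccnd3, Ccnb1, Ccnb2, Tyms and Pcna (GENCODE M21), and Mcm7 overlaps Cops6 on the opposite strand by 64 bases and Ap4m1 by 421, Ccnd3 overlaps Bysl by 361 and Lig1 overlaps Zswim9 by 1439. Cops6, at 148 TPM on average, was higher in ethanol-labelled livers at early (0.28, adjusted p = 0.0091 by limma) and late resolution (0.32, adjusted p = 0.0057). Zswim9, at 0.883 TPM, was higher in them at late resolution (0.55, adjusted p = 0.042 by limma). In male-labelled peak livers, where Mcm7, Lig1 and Ccnd3 were called lower, Ap4m1 (-0.65, adjusted p = 0.00075 by limma) and Zswim9 (-0.72, adjusted p = 0.00096) were lower too, and Bysl was higher (0.35, adjusted p = 0.0086). Longer overlaps with protein-coding genes are annotated for Ccnd1, with LTO1 on the opposite strand (1771 bases), and for Tk1, with Gm20708 on the opposite strand (10567 bases). Cdt1 overlaps Gm20388 on the same strand by 5540 bases. No level was found under those neighbours' names. Of the members too low to test, Ccne2 overlaps Ints8 by 5622 bases, Ccna2 overlaps Exosc9 by 863 and Cdc20 overlaps Elovl1 by 53. These neighbours lie on the opposite strand and averaged 4.38, 12.6 and 31.1 TPM in the order given. The values of Mcm7, Lig1, Ccnd3, Ccnd1, Tk1, Cdt1, Pcna, Tyms, Ccnb1, Ccnb2, Ccne2, Ccna2 and Cdc20 are uncertain to that extent.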

How the data were processed

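Liver RNA was extracted with the Illustra RNAspin mini kit and made into libraries with the TruSeq Stranded mRNA kit, per the labels' protocols. The authors deposited one table of TPM values for all 45 libraries. The genome build is mm10, per the submitters' processing notes; no aligner, counter or strand setting is named there or in the labels. Of 24972 rows, 26 named as calendar dates were dropped (0.0441% of TPM). The table holds no counts, so the counting error behind each value is unknown.

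Values were tested as log2(TPM + 0.5), which understates the change of low genes, for 11244 genes that averaged 0.5 TPM or more across the libraries. limma 3.58.1 in R 4.3.3, with a variance trend, fitted one mean for each of 12 groups over all 45 libraries (33 residual degrees of freedom). Averaged contrasts weight both sex or both diet labels equally, tests are two-sided, and the Benjamini-Hochberg adjustment ran across every gene tested, with 0.05 as the limit. The fit was tested on simulated data. SE is that of limma. Counts of libraries in a direction compare each library with the mean of its counterpart group. Members and lists were chosen with earlier results of these data known. All 37 members are named, and of each pathway list up to 4 genes with the smallest p over 6 comparisons. Annotation is GENCODE M21, and promoters are from RefSeq on GRCm38.p6. Other steps ran in Python 3.11.15 with pandas 2.3.3, and plots in matplotlib 3.10.9. Alternatives were other pseudocounts (0.1, 2), dropping the filter or raising it to 1 TPM, median-of-ratios scaling, quantile normalization, each stage alone, a replicate block and each library left out in turn. Replicate numbers are shared across groups, but over all groups same-numbered libraries did not deviate together.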

Additional observations from a re-analysis of the deposited data

Results flagged for a closer look

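Within groups of 4 libraries, 13 of 225 gene and group pairs had 1 library far from the other 3 by Dixon's test, and chance gives about 1 in 20. At peak, Ccnd3 was at 12.9 TPM in control male 2 (others 10.5 to 10.9 TPM), and Gmnn was at 18.2 TPM in the same library (others 7.82 to 8.68 TPM). In ethanol female 3 E2f1 was at 0.448 TPM (others 1.38 to 1.57 TPM) and Cdk1 at 0.446 TPM (others 0.892 to 0.940 TPM), both low. Lig1 was at 0.796 TPM in ethanol male 3 (others 1.88 to 2.01 TPM). In ethanol male 4 Cdk1 was at 0.158 TPM (others 0.351 to 0.391 TPM), low, and Top2a at 0.406 TPM (others 0.265 to 0.276 TPM), high.

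At early resolution, ethanol male 1 was high for Tyms, at 3.61 TPM (others 3.17 to 3.22 TPM), and for Cdk1, at 1.27 TPM (others 0.585 to 0.682 TPM). Cdk1 was low in control female 1, at 0.393 TPM (others 0.654 to 0.682 TPM), and Cdkn1b was low in control male 4, at 2.78 TPM (others 3.23 to 3.28 TPM). At late resolution Mcm5 was at 3.60 TPM in control male 3 (others 2.15 to 2.36 TPM) and Lig1 at 2.53 TPM in control male 1 (others 1.27 to 1.38 TPM), both high. Groups of 3, which include early ethanol female 3, are too small for this test.

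The ethanol minus control difference of Mcm10 and of Gmnn was not the same at peak and late resolution when the difference itself was tested, with changes of 1.59 and 1.57 on the log2 scale, as reported above. These calls did not hold under every alternative tried, and with the replicate block both were lost.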

How the results depend on the processing

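Of single-gene values under the alternatives, 3245 kept their side of the threshold. With the sign kept, 104 lost a call and 75 gained one. A further 2, called in the main fit or the alternative, changed sign. Both were Cdkn1b between sex labels at peak, at 0.026 under median-of-ratios scaling and 0.083 under quantile normalization. Values called in neither fit could change sign within the 3245, as Rrm2 for diet did at early resolution, at -0.11 without ethanol female 1. The cause was not tested where a count moved. Median-of-ratios scaling gave 9 members for diet at peak, 4 at late resolution, 5 within female-labelled early livers, 2 within male-labelled late livers, 7 for sex label at peak, 1 at early and 2 at late resolution, 5 within ethanol at peak and 1 for the change from peak to early resolution. Quantile normalization gave 9, 7, 6, 3, 7, 1, 2 and 5 for the first 8 of these and 1 for sex label within early ethanol livers. The stage alone gave 9, 5 and 1 members for the 3 diet comparisons in order of stage, 4 and 1 within female-labelled peak and early livers, 1 within male-labelled early livers and 0 for sex label late. No filter gave 1 for late diet, 4 within female-labelled early livers and 1 for the peak-to-late change, and a mean of at least 1 TPM gave 1 within female-labelled early livers.

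Leaving out 1 library gave 4 to 6 members for diet at peak, 2 to 18 at early and 1 to 5 at late resolution. Within the female label it gave 2 to 3, 1 to 7 and 0 to 4 at the 3 stages, and within the male label 2 to 5, 1 to 7 and 0 to 1. For sex label it gave 9 to 14, 0 to 1 and 0 to 2, within ethanol at peak 6 to 13, and within control 1 at peak and 0 to 1 late. The change from peak gave 0 to 7 at early and 1 to 2 at late resolution.

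Same-numbered ethanol and control libraries correlated at -0.371 to 0.25 (median -0.053, 7 of 21 pairs over 0.1) and male and female ones at -0.433 to 0.527 (6 of 22 over 0.1), so over all groups the numbers do not pair them. Ethanol and control pairs over 0.1 were the 4 of peak female, at 0.109 to 0.222, and early male 1, 2 and 3, at 0.21, 0.151 and 0.25. Male and female pairs over 0.1 were early ethanol 2 and 3 (0.527 and 0.389), late control 1, 2 and 4 (0.367, 0.211 and 0.246) and peak control 3 (0.187). Within female-labelled peak livers the replicate block gave 3 members for diet in place of 2, with both of the 2 kept. The replicate block gave 7, 10 and 2 members for diet at peak, early and late resolution, 10, 0 and 0 for sex label, and 0 for the peak-to-late change. Depth cannot be read from TPM, so no limit of detection is given.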
